A study of Arabidopsis thaliana with 2 samples.

Results

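Cell division genes were read on the expression arrays of axillary buds from 2 auxin-resistant Arabidopsis thaliana lines. The 9 genes are the Aurora kinases AUR1, AUR2 and AUR3, the mitotic chromosome proteins 3xHMG-box1 and 3xHMG-box2, the replication helicase subunit MCM7, the histone H2B genes HTB2 and HTB11, and SIM, an inhibitor of cyclin-dependent kinases (CDKs). They were chosen by name, each had 1 probe set, and all 9 were among the 5975 genes with a single gene name and a signal past the filter, of 13356 genes with such a name on the array. An earlier look at these arrays had drawn them from longer lists, with their values known, and passing that filter was a condition. They are some of the readable cell division genes and not a sample of all of them. A further 30 genes of the cell cycle lists and terms described below also passed the filter.

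One array was hybridised with bud RNA of axr3-1 and 1 with bud RNA of axr1-12. Both lines are in the Col-0 background and come from ethyl methanesulfonate mutagenesis. In axr3-1 the Aux/IAA repressor protein AXR3 (IAA17) is stabilised by a dominant mutation, and the plants are known for strong apical dominance. In axr1-12 the function of AXR1 is lost, which helps to activate the RUB modifier for auxin receptor complexes, and the plants are known for extra branching. The series title frames the study as dormant against active axillary meristems, but the labels describe both bud samples alike, at a length of about 2 mm, and the sources used here do not say which line stood for dormancy. Both lines were sown on compost treated with Intercept WG, kept in the cold for 3 days, and grown at 21 °C with days of 16 h and nights of 8 h. Neither wild-type buds nor replicate arrays were analysed here, and the sources used here do not say how many plants gave each RNA.

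Cells of dormant buds are known to rest mostly before DNA replication, and outgrowth brings them back through S phase, G2 and mitosis. MCM proteins load onto replication origins before S phase and unwind DNA during it, core histones are made mainly in S phase to package the new DNA, and Aurora kinases and the 3xHMG-box proteins act on spindles and condensed chromosomes in mitosis. SIM holds back CDK activity and is known from trichomes, where its loss lets cells divide that would otherwise enlarge by endoreduplication.

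Among the 9 genes, those of mitosis had a lower signal in axr1-12 buds than in axr3-1 buds, with AUR2 as the exception. The replication and histone genes among them differed by less than probe sets of the same gene disagree. In the wider lists described below, most other measured genes of mitosis and cytokinesis also differed by less. The replication genes POLA3 and ICU2 differed by more, in opposite directions, but ICU2 passed the filter only through its higher signal in axr1-12. AUR3 was 1.46-fold, AUR1 1.36-fold, 3xHMG-box1 1.31-fold and 3xHMG-box2 1.31-fold lower in axr1-12, and MCM7 was 1.203-fold lower. AUR2 was 1.18-fold, HTB2 1.17-fold, HTB11 1.16-fold and SIM 1.06-fold higher. In all, 5 of the 9 were lower and 4 higher, as were 51.6% and 48.4% of all measured genes. None of the 9 differed 1.5-fold, a size that 19.7% of all measured genes reached in one direction or the other. With 1 array per line these are differences between 2 RNA samples, with no replicate check and no p-value. Fewer dividing cells and less of each RNA per dividing cell cannot be told apart in whole buds. The axr1-12 array was also lower in all 18 probe sets of the hybridisation spikes, by a median log2 difference of -0.63, and in the summed signal of 2 leaf mesophyll markers, 4224 units against 9179 in axr3-1. The part of either in the lower mitotic signal was not tested.

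**Figure D1:**
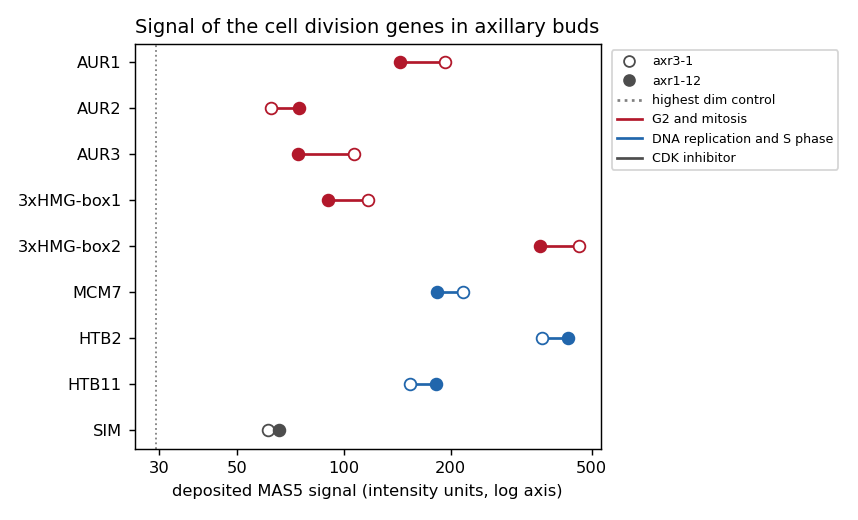
Deposited signal of each gene (intensity units, log axis) on the axr3-1 array (open circle) and the axr1-12 array (filled circle), 1 array per line and no error bar, coloured by cell cycle phase. All 9 genes lie right of the dotted line at 29.4 units, the highest dim bacterial control, and the filled circle is left of the open one for 5 of them.

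The Aurora kinases phosphorylate chromosomal and spindle proteins during mitosis. AUR1 (AT4G32830), known from spindles and the forming cell plate, gave 193 units in axr3-1 and 144 in axr1-12, a log2 difference of -0.44. AUR2 (AT2G25880), its close relative with a similar location, gave 62.1 units in axr3-1 and 74.6 in axr1-12, a log2 difference of 0.24. AUR3 (AT2G45490), which lies at centromeres and phosphorylates histone H3, gave 107 units in axr3-1 and 74.2 in axr1-12, a log2 difference of -0.55.

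AUR1 and AUR3 thus had the lower signal in axr1-12 and AUR2 the higher. A partial yardstick for such differences came from the 32 genes with 2 measured probe sets, whose log2 differences disagreed by 0.37 (root mean square), a 1.295-fold change. This covers differences among probes of a gene but not among plants or hybridisations. AUR1 and AUR3 lay outside it and AUR2 inside it. The change of AUR1 relative to AUR2, which does not depend on scaling an array by 1 factor, was -0.69 on the log2 scale, a 1.61-fold unequal change, and that of AUR3 relative to AUR2 was -0.79. AUR1 and AUR3 differed from each other by 0.10. Whether an Aurora probe set also binds RNA of a relative was not tested. The AUR2 signal was 2.11 times the highest dim bacterial control in axr3-1 and 2.54 times in axr1-12, and that of AUR3 was 3.63 and 2.53 times.

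The 3xHMG-box proteins are plant proteins with 3 DNA-binding HMG boxes that bind condensed chromosomes in mitosis and meiosis, and their genes are expressed in dividing cells. 3xHMG-box1 (AT4G11080) gave 117 units in axr3-1 and 90.2 in axr1-12, a log2 difference of -0.39. 3xHMG-box2 (AT4G23800) gave 462 units in axr3-1 and 359 in axr1-12, also a log2 difference of -0.39. The log2 difference of 3xHMG-box1 minus that of 3xHMG-box2 was -0.0038, so the pair had nearly the same ratio between the arrays. Both lay just outside the probe set disagreement, at -0.391 and -0.387 against 0.373, and this placement depended on the scaling. On the deposited scale the values were -0.370 and -0.366, inside it.

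Over the 5 mitotic genes the median log2 difference was -0.39, with a range from -0.55 to 0.24, against a median of -0.02 over all measured genes. Of the 5, 4 were lower in axr1-12 by more than the probe set disagreement, whereas 21.2% of all measured genes were. None of the 9 genes was higher by more than it, against 18.3% of all measured genes. The genes were picked with their values known, and they may vary together, so this count is a description of these arrays. None of these genes was at an extreme of the array. AUR3 had the largest difference of the 9, and 22.3% of measured genes had a larger one in either direction.

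**Figure D2:**
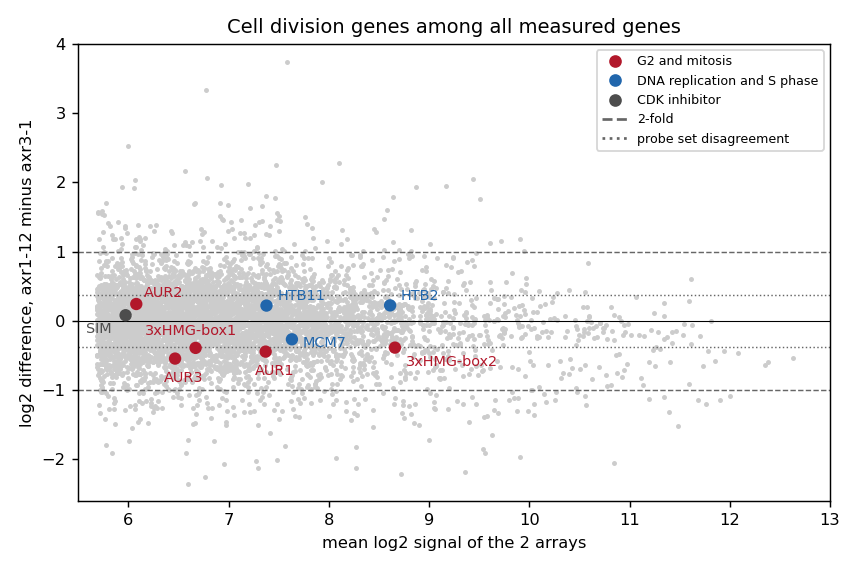
Log2 difference (axr1-12 minus axr3-1) against mean log2 signal for the 5975 measured genes (grey) and the 9 cell division genes (coloured by phase), 1 array per line. Dashed lines mark 2-fold and dotted lines the disagreement of 0.37 between probe sets of a gene. The 9 genes lie within the bulk of the cloud, between -0.55 and 0.24.

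The replication and S phase genes were split. MCM7 (AT4G02060, also named PROLIFERA and listed as PRL), a subunit of the replicative helicase that embryos need to develop, gave 217 units in axr3-1 and 183 in axr1-12, a log2 difference of -0.27. HTB2 (AT5G22880), a histone H2B gene, gave 362 units in axr3-1 and 429 in axr1-12, a log2 difference of 0.22. HTB11 (AT3G46030), another H2B gene, gave 154 units in axr3-1 and 182 in axr1-12, also 0.22. All 3 lay inside the probe set disagreement, so the direction of each is not interpreted. The change of HTB2 relative to MCM7, 0.49 on the log2 scale, and that of HTB11 relative to MCM7, also 0.49, were larger than it.

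The H2B family encodes near-identical proteins, and whether a probe set also binds RNA of a relative was not tested. The other 2 measured H2B genes did not have the higher signal of HTB2 and HTB11. HTB1 gave 486 units in axr3-1 and 484 in axr1-12, and HTB4 gave 419 and 373 units, log2 differences of -0.02 and -0.19. HTB1 was 0.03 higher after quantile and after loess scaling. The 4 H2B genes ranged from -0.19 to 0.22, with 2 lower and 2 higher, against 51.6% and 48.4% of all measured genes.

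SIM (AT5G04470) gave 61.0 units in axr3-1 and 65.5 in axr1-12, a log2 difference of 0.08. This was the smallest difference of the 9, and 84.4% of measured genes differed by more. Its signal was 2.08 times the highest dim control in axr3-1 and 2.23 times in axr1-12. No other gene of the list of CDK inhibitors was named on the array, so SIM alone stands for them.

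Set by phase, the median log2 difference was -0.39 for the mitotic genes and 0.22 for the replication and S phase genes, a gap of -0.61 between them. The gap lay between -0.61 and -0.57 under the 10 settings used, most of which could not change it. Scaling an array by 1 factor cancels in the gap, and no floor, the filters and the probe set choices left it at -0.61. It was -0.59 with quantile scaling, -0.60 with loess scaling and -0.57 with the pseudocount. The gap also rests on replication and S phase genes whose directions are not interpreted. The phase groups overlapped, because AUR2 had the highest value of the 9 and MCM7 lay with the lower genes. The median over all 9 was -0.27.

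**Figure D3:**
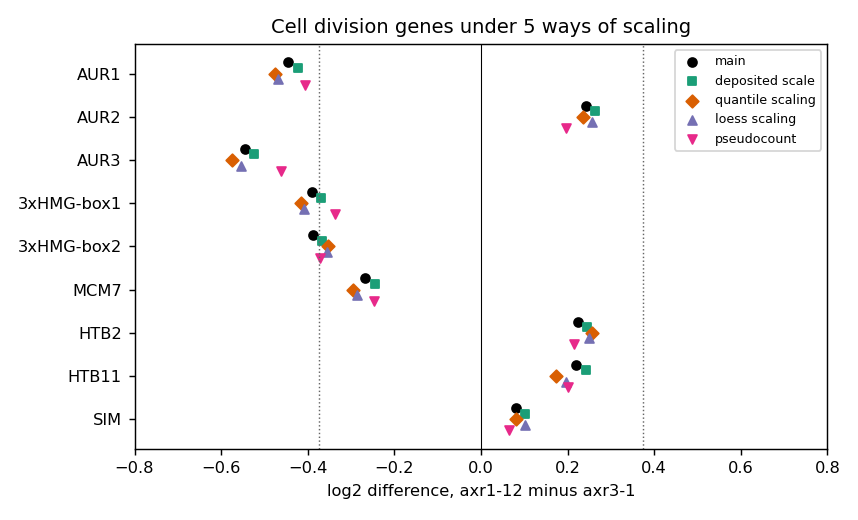
Log2 difference (axr1-12 minus axr3-1) of each of the 9 genes under the main scaling, the deposited scale, quantile scaling, loess scaling and a pseudocount in place of the floor. Dotted lines mark the probe set disagreement of 0.37. No gene crosses 0, and the 3xHMG-box genes are the ones whose points fall on both sides of a dotted line.

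The genes were also read by chromosome and by signal, although a signal past the filter had been a condition of their choice. By locus tag, AUR1, 3xHMG-box1, 3xHMG-box2 and MCM7 lie on chromosome 4 and all 4 were lower in axr1-12, as were 53.4% of the 865 measured genes of that chromosome, whose median log2 difference was -0.02. AUR2 and AUR3 both lie on chromosome 2 and differed in direction. The 9 genes had mean signals in the dim and middle range of the measured genes, and none was among the 390 genes at or above a mean log2 signal of 9, where the median log2 difference was -0.16. In the 3 signal bands below, which hold 3 of the genes each, the median lay between -0.03 and 0.01 and the central 80% of genes ran at most from -0.62 to 0.55. All 9 genes lay inside that range.

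The wider view used 12 lists of cell cycle genes and 6 groups of description terms. Of 413 list entries, 73 had no match among the reference names, and of the 303 different genes matched, 36 were named on the array and 29 measured. The description terms gave 23 genes on the array, of which 16 were measured. Leaving out the 9 genes above, 30 genes were measured, with a median log2 difference of -0.08, against -0.02 over all measured genes. In direction, 19 were lower and 11 higher, against 51.6% and 48.4% of all measured genes. By more than the probe set disagreement, 7 were lower and 4 higher, against 21.2% and 18.3% of all measured genes. Of the 30, 3 were at least 1.5-fold lower and 3 at least 1.5-fold higher in axr1-12, against 11.3% and 8.42% of all measured genes. No gene of the list of G1 to S control, which holds the D-type cyclins, was named on the array. Their signals were therefore not read, which says nothing of how high they were. Of the list of G2 to M cyclins and CDKs only TSO1 was named, and it was measured.

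In the replication lists, POLA3, a subunit of the primase that starts new DNA strands, was 1.49-fold lower in axr1-12, at 61.0 units against 89.6 in axr3-1. ICU2, the catalytic subunit of DNA polymerase alpha that works with the primase, went the other way, 1.32-fold higher from 49.2 to 65.6 units. Both lay outside the probe set disagreement and near the filter of 51.4 units. ICU2 was below that value in axr3-1 and passed the filter only through its signal in axr1-12. PSF2, a subunit of the GINS complex that works with the MCM helicase, gave 53.4 units in axr3-1 and 52.3 in axr1-12. GEM, a protein that binds the licensing factor CDT1, gave 66.1 units in axr3-1 and 67.6 in axr1-12.

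For 8 other measured genes of mitosis, its control and cytokinesis, 5 were lower and 3 higher in axr1-12, against 51.6% and 48.4% of all measured genes. TOPII was among the higher ones but slightly lower after quantile and loess scaling. Their values follow with axr3-1 first. BUB3.1, a spindle checkpoint protein, gave 112 units in axr3-1 and 106 in axr1-12. TON1B, which is needed to place the division plane, gave 73.3 and 61.2 units, a log2 difference of -0.28. TOPII, the topoisomerase that untangles sister chromatids, gave 132 and 135 units, and HTR12, the centromeric histone H3, gave 60.8 and 69.7 units. SAMBA, a regulator of the anaphase-promoting complex that marks cyclins for destruction, was 1.40-fold lower in axr1-12, at 76.4 units against 105 in axr3-1, whereas HBT, a core subunit of the same complex, gave 80.0 and 76.7 units. TSO1, a nuclear protein needed for ordered division in floral meristems, gave 213 and 194 units, and KEU, a cytokinesis protein that helps vesicles fuse into the cell plate, gave 188 and 210. Of these 8 genes only SAMBA lay outside the probe set disagreement. Of all measured genes, 21.2% were lower and 18.3% higher by more than it.

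Histone chaperones and linker histones also stayed inside the disagreement under the main scaling. The ASF1 chaperone genes SGA2 and ASF1B had log2 differences of -0.04 and 0.13, and the linker histone gene HON4 one of 0.02. HIS1-3, a linker histone known for its induction by drought, gave 1681 units in axr3-1 and 1957 in axr1-12, a log2 difference of 0.20 that became 0.55 after quantile and 0.46 after loess scaling.

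Tubulins build the spindle and the phragmoplast as well as the cortical microtubules of expanding cells. The 4 measured beta tubulin genes were all lower in axr1-12, by log2 differences from -0.88 to -0.26. A further beta tubulin gene, TUB1, gave 84.6 units in axr3-1 and 29.8 in axr1-12, but its mean signal was below the filter, so the range leaves it out. Of all measured genes, 51.6% were lower, and 21.2% were lower by more than the probe set disagreement. TUB6 was 1.83-fold lower, from 318 to 176 units, and TUB5 was 1.56-fold lower, from 541 to 353 units, while TUB7 and TUB9 lay inside the probe set disagreement. The alpha tubulin genes differed from them. TUA6 gave 1036 units in axr3-1 and 1002 in axr1-12, and its log2 difference of -0.07 became 0.13 after quantile and 0.10 after loess scaling. TUA1, an alpha tubulin known from pollen, was 1.68-fold higher in axr1-12, at 115 units against 67.4 in axr3-1. KINESIN-13A, a microtubule motor known from Golgi stacks and cell wall patterning, was 1.47-fold lower, and PFI, a cofactor of tubulin folding, was 1.45-fold lower.

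The list of genes that link growth to division held the largest difference of the wider set. ARL, an ARGOS-like protein that promotes cell expansion, gave 104 units in axr3-1 and 311 in axr1-12 and was 2.96-fold higher. It was the one gene of the 30 past 2-fold, a size reached by 2.28% of measured genes in that direction. RAPTOR1, a subunit of the TOR kinase complex that couples nutrients to growth, was 1.57-fold higher, from 94.4 to 150 units, whereas its relative RAPTOR2 gave 66.2 and 58.0 units. TCP15, a transcription factor that restrains endoreduplication and acts on proliferation in leaves and flowers, was 1.64-fold lower, from 168 to 104 units.

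**Figure D4:**
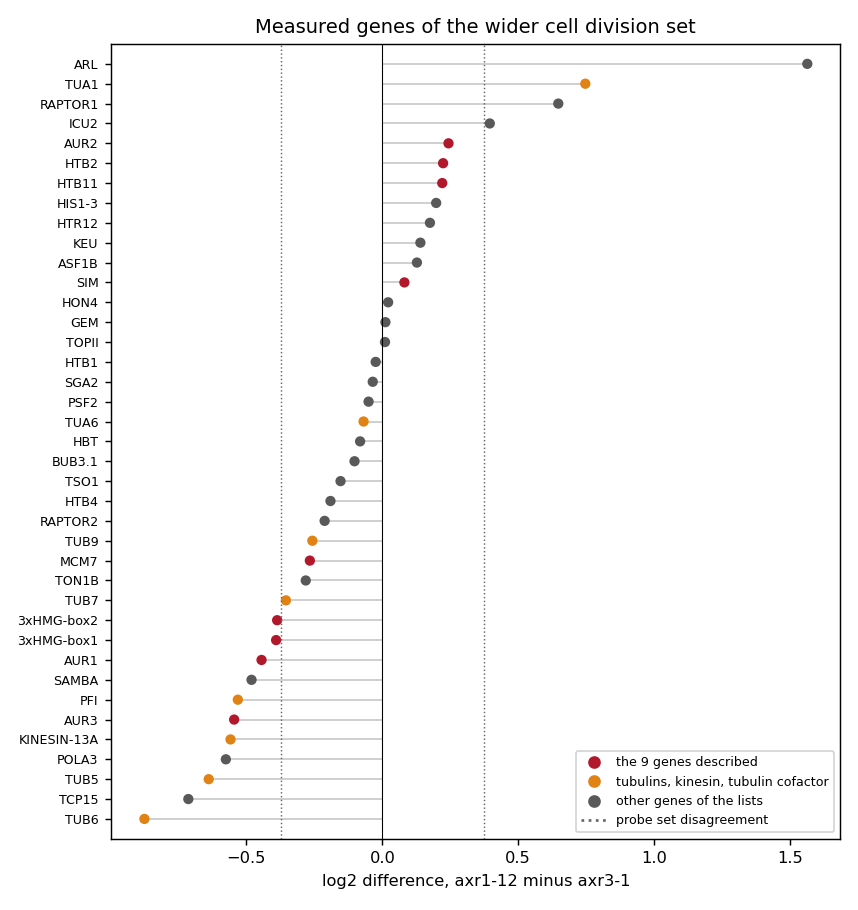
Log2 difference (axr1-12 minus axr3-1) of the 39 measured genes of the cell cycle lists and terms, sorted, with the 9 genes described in red and tubulin-related genes in orange. Dotted lines mark the probe set disagreement of 0.37. The values run from TUB6 at -0.88 to ARL at 1.56.

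The composition of the buds could be followed only through a few marker genes. Of 11 shoot meristem markers 2 were on the array under their names. LAS, needed to form axillary meristems, gave 69.8 units in axr3-1 and 61.8 in axr1-12, while the stem cell marker CLV3 gave 7.29 and 2.74 units, below the dim controls on both arrays. Of 7 leaf mesophyll markers 2 were measured, and they are those summed above. The single vascular marker of 10, IRX10 (listed as GUT2), gave 105 and 90.1 units, and the single flower marker of 9, the anther regulator AMS, gave 46.8 and 66.5. Of 6 trichome markers only TRY was on the array, at 39.7 and 55.6 units and below the filter. Of 4 stomatal markers 3 were on the array, with a summed signal of 44.8 and 52.0 units. All 3 were below the filter, and 2 of them did not exceed the highest dim control on either array. None of 5 root markers was named on the array.

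The arrays themselves were alike in scale, with median signals of 51.8 units in axr3-1 and 52.3 in axr1-12, and log2 signals correlated at r = 0.905 across the measured probe sets, a value over genes and not over replicates. Control pairs read the 3′ and 5′ ends of the same RNA (actin, GAPDH or ubiquitin), and their ratio reflects RNA integrity. The ratios differed between the arrays by a median log2 value of -0.03 over 6 pairs, within a range from -0.39 to 0.20. The ratios themselves ran from 0.91 to 4.30 in axr3-1 and from 1.04 to 4.91 in axr1-12, with an actin pair the highest on both arrays. The bright end was lower in axr1-12, with a median log2 difference of -0.22 over the 150 genes at a mean log2 signal of 10 or more. At the signals of the 9 genes, the intensity trend fitted by loess on the deposited scale lay between -0.01 and 0.05.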

How the data were processed

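Per the labels' protocols, bud RNA was cleaned on columns with DNase, reverse-transcribed from an oligo(dT) primer and transcribed into biotin-labelled cRNA. The authors deposited a linear intensity for each probe set. MAS5 is the tool that the submitters' processing notes name, without a version. Each array held 22810 probe sets, of which 64 controls were left out of the comparison. Both arrays had a trimmed mean of 100.0, so they had been scaled. The values carry no detection calls here.

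Lines were taken from the source names. Probe sets were named from the GEO annotation of the platform, with symbols brought up to TAIR10.1 by gene ID, and 13513 probe sets had 1 gene, 503 several and 8730 no entry. Log2 differences are axr1-12 minus axr3-1, after division of the axr1-12 array by the median ratio over the brighter probe sets (log2 shift 0.021), so a fold is about 1.48% off the ratio of the printed signals. Signals below the 25th percentile, 15.3 units, were set to that floor. Genes with a mean log2 signal at or above the median of all probe sets are called measured, and the brightest probe set stood for a gene with several. The highest of 27 dim bacterial controls was 29.4 units. Thresholds were 1.5-fold and 2-fold. Beyond the 9 genes, the rule named in each list or term group up to 4 genes with the largest differences past 1.5-fold, or the 2 largest where none reached it. BUB3.1, TON1B, GEM, HTR12, HTB1, HTB4, the ASF1 genes, HON4, RAPTOR2, TUA6, TUB7, TUB9, KINESIN-13A, PFI and those below the filter were named outside it, after their values were seen. The 9 genes and the lists were chosen with earlier results of these data known.

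With 1 array per line no test was possible, and precision is limited by the number of arrays. The alternatives tried were no rescaling (the deposited scale), quantile or loess scaling (span 0.3), no floor, a pseudocount of 16, no filter or a filter at the 67th percentile, the mean over probe sets, plain _at probe sets and a 3-fold threshold. The procedure was tested on simulated data. Python 3.11.15, numpy 2.4.6, pandas 2.3.3 and statsmodels 0.14.6 were used.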

Additional observations from a re-analysis of the deposited data

Results flagged for a closer look

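Control probe sets outside the comparison gave a signal above the dim bacterial controls, whose highest value was 29.4 units. One of them, for the 25S RNA of cytosolic ribosomes, stood at 1101 units in axr3-1 and at 549 in axr1-12. The hybridisation spikes are added bacterial and phage RNAs, and their 18 probe sets were all lower on the axr1-12 array, by a median log2 difference of -0.63 and a range from -0.84 to -0.26.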

How the results depend on the processing

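None of 78 alternative values of the 9 genes changed sign, and the largest move was 0.08 on the log2 scale. Many of these values could not have moved. Each gene has 1 probe set and lies above the floor, so no floor, the filters and the mean over probe sets returned the same value. Plain _at probe sets changed only the scaling factor, and by little. The values could move under the deposited scale, quantile scaling, loess scaling and the pseudocount. AUR2, AUR3 and SIM did not pass the filter at the 67th percentile and have no value there. The count of mitotic genes lower by more than the probe set disagreement of 0.37 was 4 in the main setting, 2 on the deposited scale and with a pseudocount (AUR1 and AUR3), and 3 with quantile or loess scaling (AUR1, AUR3 and 3xHMG-box1). The medians of the 9 genes, of both phase groups and of the wider set moved by less than that disagreement under every alternative. Of 128 alternative values of the other genes named by the rule, 2 changed sign, those of TOPII with quantile (-0.03) and loess scaling (-0.02). The numbers of measured genes at least 2-fold higher and lower in axr1-12, 136 and 189, were 345 and 426 without a filter, over 13356 genes, and 28 and 25 at 3-fold. The number higher was 88 with the filter at the 67th percentile, over 3788 genes. No paired analysis was possible because each line has 1 array and the result comes from no test. Signal over background limits AUR2 and SIM on both arrays and AUR3 in axr1-12 most, as each lay under 3 times the highest dim control there.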

Other observations

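A further 14 genes of the lists and terms were on the array under a single name but below the filter. Of these, 5 were at or below the highest dim control on both arrays, among them the checkpoint gene BUBR1, at 28.7 units in axr3-1 and 22.7 in axr1-12. The checkpoint gene BUB3.2 gave 32.5 and 37.0 units, and KINESIN-12B, a motor of the phragmoplast, gave 40.9 and 43.1. POLD3, a subunit of DNA polymerase delta, gave 51.0 and 51.5 units, and RAD9, a DNA damage checkpoint protein, gave 41.9 and 39.7. The beta tubulin gene TUB1 gave 84.6 units in axr3-1 and 29.8 in axr1-12, and the dynamin-like gene DL1D gave 49.6 and 23.7, the latter below the dim control.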
